A study of Mus musculus with 12 samples.

Results

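This report describes the 10 genes that encode the classical MHC class II chains, the invariant chain, the peptide-exchange and exchange-inhibitor chains and the class II transactivator (Ciita, Cd74, H2-Aa, H2-Ab1, H2-Eb1, H2-DMa, H2-DMb1, H2-DMb2, H2-Oa and H2-Ob) in B cells of intestinal Peyer's patches (PP). They were named for their function and not selected by a threshold on a measured value, and all 10 were found among the 36175 genes of the expression table. All 10 reached 1 or more in each of the mice and so were among the 12590 genes tested. PP B cells of 12 male C57BL/6JHsd wild-type mice, 10 to 12 weeks old, were purified with magnetic beads and analyzed by bulk RNA-seq. In 6 stroke mice, labelled brain injury, the middle cerebral artery had been occluded for 1 h and reopened, and in 6 sham controls a filament was placed in the common carotid artery and taken out without occlusion. Analgesics (buprenorphine before and carprofen after the operation) belong to the surgical protocol of both groups. Cells were taken 18 h after surgery, and each library came from 1 mouse. The cells were those still present in PP at that time. The study's methods describe a B cell isolation kit followed by a CD45 bead step against epithelial and endothelial cells and state a very high purity, while the labels give no purity for single preparations. The comparison asked whether transcripts of PP B cells differed between stroke mice and sham controls.

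B cells take up antigen through their receptor, cut it in endosomes and display peptides on MHC class II molecules to CD4+ T cells, whose help drives germinal centers and class switching, including the switch to IgA in PP. Class II molecules are pairs of an α and a β chain. In the endoplasmic reticulum they bind the invariant chain, Cd74, which fills the peptide groove. Proteases then trim Cd74 to a short fragment, and H2-DM, a pair of an α chain (H2-DMa) and a β chain (H2-DMb1 or H2-DMb2), exchanges that fragment for antigenic peptide. H2-O, made of H2-Oa and H2-Ob and found mainly in B cells, inhibits H2-DM. H2-Aa and H2-Ab1 form I-A. H2-Eb1 is the β chain of I-E, whose α chain gene H2-Ea carries a deletion of its promoter in C57BL/6 mice, so that these mice display I-A only. Ciita does not bind DNA itself. It is recruited to RFX, CREB and NF-Y factors, which sit on X and Y box elements a short way upstream of the class II genes.

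The shared promoter elements tie these genes to Ciita, so the stretch that holds matches to them is shown for H2-Aa, H2-Eb1, H2-DMb2, H2-Oa and H2-Ob. That of H2-DMb1 lies in an annotated exon and is not shown, nor is that of H2-DMa. RefSeq promoters of build GRCm38.p6 were matched for 7 of the 10 genes. Ciita, Cd74 and H2-Ab1 were not matched. Each line runs 5′ to 3′ on the strand of the gene, is 51 bases long and ends at GATTGG, the core of a Y box. The windows overlap no annotated exon apart from the last base of that of H2-Oa, and that of H2-DMb2, at its RefSeq start, lies inside the longer GENCODE gene. Capitals mark GCAAC (the core of an X box), ATGATG (a stretch next to it) and GATTGG. These letters were chosen after the promoters had been read.
H2-Aa, chr17:34287867-34287917, minus strand: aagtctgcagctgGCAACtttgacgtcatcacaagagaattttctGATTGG
H2-Eb1, chr17:34305762-34305812, plus strand: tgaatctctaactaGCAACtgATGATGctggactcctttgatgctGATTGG
H2-DMb2, chr17:34145113-34145163, plus strand: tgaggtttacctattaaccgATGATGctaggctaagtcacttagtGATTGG
H2-Oa, chr17:34092290-34092340, plus strand: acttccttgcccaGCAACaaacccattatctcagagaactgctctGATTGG
H2-Ob, chr17:34238802-34238852, plus strand: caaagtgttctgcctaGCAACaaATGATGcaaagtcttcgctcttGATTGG

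GATTGG began 49 bases before the transcription start of H2-Aa, 60 before that of H2-Eb1, 44 before that of H2-Oa, 58 before that of H2-Ob and 91 before that of H2-DMb2. In H2-Aa and H2-Oa, GCAAC began 32 bases upstream of GATTGG. The same distance was 31 bases in H2-Eb1 and 29 bases in H2-Ob. H2-DMb1 had GATTGG 62 bases before its RefSeq start and ATGATG 25 bases further upstream, at the same distance as in H2-DMb2. By GENCODE this stretch of H2-DMb1 lies in an annotated exon, downstream of the gene start given below. H2-DMa had a pair of listed promoters, of which one held GATTGG 199 bases before the start, with no GCAAC or ATGATG, and the other held no GATTGG. Both of these promoters lie inside the longer GENCODE gene of H2-DMa.

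Across 32851 promoters, searched on both strands over the 250 bases before the start, 14.6% held the Y core, 29.9% the X core and 9.39% the neighboring stretch. Of the 7 matched genes, 7 held the Y core, 5 the X core and 4 the neighboring stretch. The X core of H2-DMa lay on the reverse strand of its promoter without a Y core. These counts are per gene, with either promoter of H2-DMa, while the shares are per promoter. An X core followed on the same strand by a Y core at 25 to 40 bases was found in 0.24% of all promoters and in 4 of the 7 genes (H2-Aa, H2-Eb1, H2-Oa and H2-Ob). A match of letters is a description and not evidence of a bound factor.

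The label of the cells was checked first. All 7 B cell markers used here (Ms4a1, Cd79a, Cd79b, Pax5, Cr2, Cd22 and Fcer2a) were at 1 or above in every mouse, and their summed value ran from 2169 to 2881 in sham controls and from 1351 to 2506 in stroke mice, with the lowest sum in stroke mouse 5. Values are the normalized TPM-like signal of the deposited table, which gives no read counts, so sequencing depth is unknown and no counting interval can be given. The columns summed to between 559570 in sham mouse 6 and 1404340 in sham mouse 1, and the 10 most abundant genes held 14.7% and 45.8% of the sum in these mice. Sham mouse 6 and stroke mouse 5 stood farthest from the rest, with array quality weights of 0.274 and 0.305. Mitochondrial transcripts held 4.83% and 7.49% of the sum in these mice, the latter the highest share, against 2.13% in sham mouse 2, the lowest. Values without sham mouse 6 or stroke mouse 5 are given where leaving them out moved a call or a called value. In bulk RNA, fewer cells of a type and less RNA per cell cannot be told apart.

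None of the 10 genes differed between stroke mice and sham controls by limma with Benjamini-Hochberg adjustment over all 12590 genes, with adjusted p-values from 0.832 to 0.909. At an unadjusted p under 0.05, 0 of the 10 were called. The same test called 0 of 12590 genes (0.0%) after adjustment and 770 (6.12%) before it, of which 557 (4.42% of genes tested) were higher and 213 (1.69%) lower in stroke mice. The exact permutation test of each gene over all assignments of the mice gave p from 0.110 (Ciita) to 0.608 (Cd74). The groups overlapped for all 10 genes, where 0.437% of all genes tested did not overlap. The median log2 fold change of the 10 genes was −0.19, beside 0.0069 for all genes tested, and 8 were lower and 2 (Ciita and H2-DMb1) higher in stroke mice by their estimates.

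**Figure D1:**
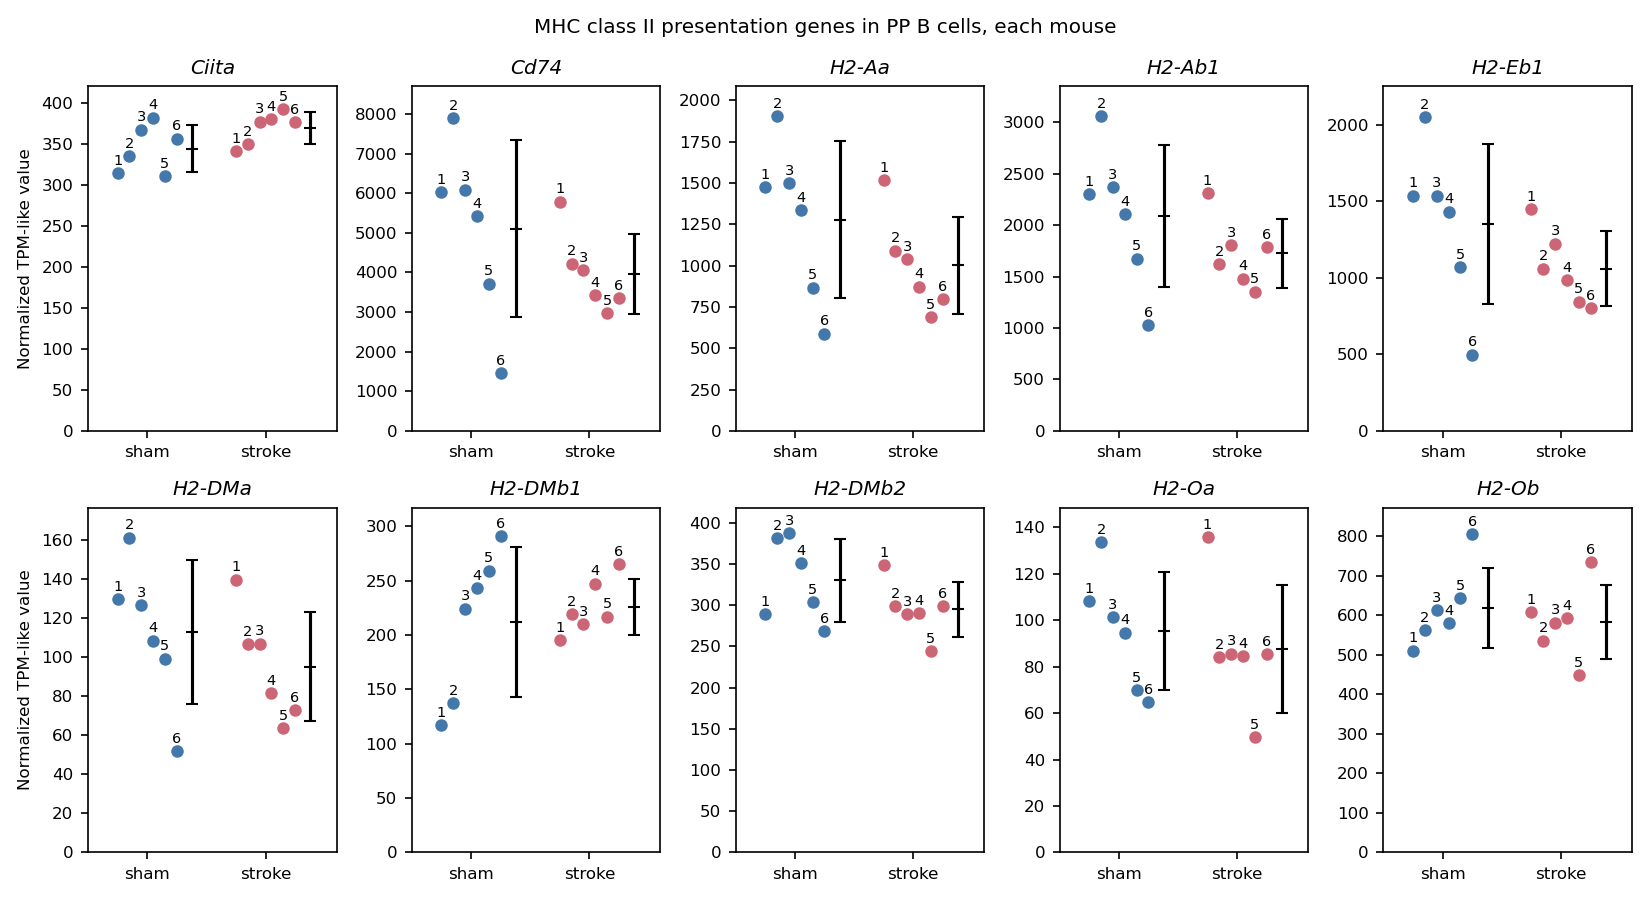
Normalized TPM-like value (linear axis from 0) of each of the 10 genes in each mouse, with the mouse number above each point, sham in blue and stroke in red. Black bars give mean ± s.d. of 6 mice. The groups overlap in every panel, and sham mouse 6 is the lowest point for Cd74, H2-Aa, H2-Ab1, H2-Eb1 and H2-DMa.

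Ciita lies on chromosome 16, Cd74 on chromosome 18 and the other 8 genes in the MHC region of chromosome 17, and gene coordinates below are those of GENCODE on build GRCm38. Levels spanned a wide range. Averaged over 12 mice, the order on this length-adjusted scale was Cd74 (4535), H2-Ab1 (1907), H2-Eb1 (1207), H2-Aa (1139), H2-Ob (601), Ciita (357), H2-DMb2 (313), H2-DMb1 (219), H2-DMa (104) and H2-Oa (91.5). Cd74 ranked 8 among the 12590 genes tested and H2-Ab1 ranked 35. Cd74 was above H2-Ab1, H2-Ab1 above H2-Eb1 and H2-Ob above Ciita in 12 of 12 mice. Neighbors were less separated elsewhere. H2-Eb1 exceeded H2-Aa, Ciita exceeded H2-DMb2 and H2-DMa exceeded H2-Oa in 9 of 12 mice, and these neighbors are not separated beyond the spread between mice. On average the α chains of H2-DM and H2-O were listed below their β chains, with H2-Ob at 4.20 to 12.4 times H2-Oa.

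Ciita (chr16:10480059-10528418) encodes the transactivator and was the steadiest of the 10 genes on the deposited scale, with a 1.26-fold range over all mice. Its values in sham controls ran from 311 to 382 with a median of 346, and in stroke mice from 342 to 393 with a median of 377. Of 6 stroke mice, 5 lay above the sham mean, and the ranges overlapped. Mean values were 345 ± 29.0 (s.d., n = 6) in sham controls and 370 ± 19.8 (n = 6) in stroke mice. The log2 fold change was 0.10 (SE 0.096, 95% interval −0.10 to 0.31) and its limma adjusted p was 0.850. The s.d. of its log2 values within groups was larger than that of only 0.842% of the genes tested. Column sums differed between mice, from 559570 in sham mouse 6 to 1404340 in sham mouse 1. These measures of spread therefore hold for the deposited scale only.

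Cd74 (chr18:60803848-60812652), the invariant chain, was the most abundant and, on the deposited scale, the most variable of the 10 genes. Sham controls ran from 1454 in mouse 6 to 7892 in mouse 2 with a median of 5724. Stroke mice ran from 2968 to 5787 with a median of 3745. All 6 stroke mice thus lay inside the range of the sham controls, which was wider. The log2 fold change was −0.22 (SE 0.34, 95% interval −0.96 to 0.51), with a limma adjusted p of 0.902, and the s.d. within groups was above that of 92.5% of genes tested. The column sums were likewise low in sham mouse 6 (559570) and high in sham mouse 2 (1386994). How far this spread follows the scaling was not tested.

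The classical chain genes followed the same pattern. H2-Aa (chr17:34282744-34287823), the α chain of I-A, ran from 588 to 1902 in sham controls (median 1404) and from 689 to 1517 in stroke mice (median 956). Its log2 fold change was −0.30 (SE 0.27, 95% interval −0.89 to 0.29; limma adjusted p = 0.850). It had the lowest estimate of the 10 genes, and its interval held 0.
H2-Ab1 (chr17:34257689-34269419), the β chain of I-A, ran from 1025 to 3059 in sham controls (median 2204) and from 1352 to 2312 in stroke mice (median 1702). H2-Ab1 had a log2 fold change of −0.22 (SE 0.23, 95% interval −0.72 to 0.27). As for H2-Aa, sham mouse 2 was highest and sham mouse 6 lowest.
H2-Eb1 (chr17:34305867-34316674), the β chain of I-E, is transcribed in this strain although I-E is not displayed. It ran from 498 to 2048 in sham controls (median 1485) and from 803 to 1448 in stroke mice (median 1021). Its log2 fold change was −0.26 (SE 0.29, 95% interval −0.88 to 0.36). The highest and lowest mice were again sham mice 2 and 6.

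**Figure D2:**
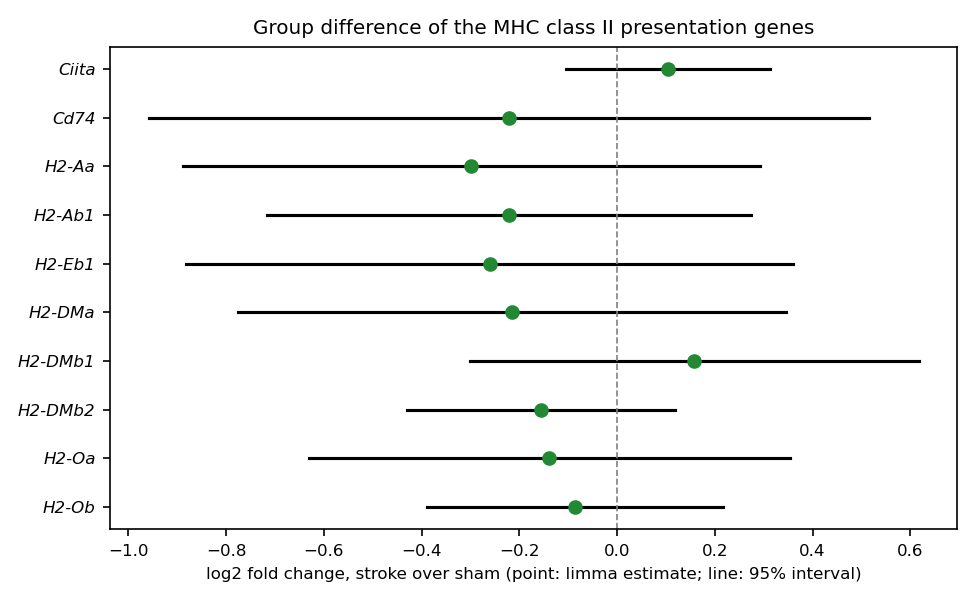
Log2 fold change of stroke mice over sham controls for each of the 10 genes (point, limma estimate; line, 95% interval; 6 mice per group). All intervals cross the dashed line at 0, and the intervals of Cd74 (−0.96 to 0.51) and Ciita (−0.10 to 0.31) are the widest and the narrowest.

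The H2-DM genes, which serve peptide exchange, did not share a single pattern between mice. H2-DMa (chr17:34119541-34139101) resembled the classical chains, with 51.7 to 161 in sham controls (median 117) and 63.6 to 139 in stroke mice (median 94.0). Its log2 fold change was −0.21 (SE 0.26, 95% interval −0.78 to 0.35), and it ran from −0.42 without sham mouse 6 to −0.10 without sham mouse 2. Sham mouse 6 was again lowest and sham mouse 2 highest. H2-DMb2 (chr17:34143307-34151555) was steadier, with 268 to 388 in sham controls (median 328) and 245 to 349 in stroke mice (median 295). For H2-DMb2 the log2 fold change was −0.16 (SE 0.13, 95% interval −0.43 to 0.12), with the smallest limma adjusted p of the 10 genes, 0.832.

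H2-DMb1 (chr17:34153072-34160230) ran the other way between mice. It was lowest in sham mice 1 and 2, at 117 and 137, and highest in sham mouse 6, at 291, with a sham median of 234. Stroke mice lay between 195 and 265 with a median of 218, inside the sham range. The log2 fold change was 0.16 (SE 0.21, 95% interval −0.30 to 0.62), and it was 0.0028 without sham mouse 1 and 0.05 without sham mouse 2. H2-DMb1 and H2-DMb2 are neighboring, closely related copies, and reads that fit both can be assigned to either, so the split between them is uncertain. Their sum was less variable than H2-DMb1 alone, at 542 ± 74.0 (n = 6) in sham controls and 521 ± 36.8 (n = 6) in stroke mice, with a 1.51-fold range over all mice against 2.48-fold for H2-DMb1 and 1.59-fold for H2-DMb2.

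The H2-O genes, which encode the inhibitor of H2-DM, also differed from each other. H2-Oa (chr17:34092340-34095234) ran from 64.7 to 134 in sham controls (median 98.0) and from 49.6 to 136 in stroke mice (median 85.1). Its log2 fold change was −0.14 (SE 0.23, 95% interval −0.63 to 0.35). H2-Ob (chr17:34238903-34254414) ran from 510 to 805 in sham controls (median 596) and from 447 to 735 in stroke mice (median 587). For H2-Ob it was −0.09 (SE 0.14, 95% interval −0.39 to 0.22). Stroke mouse 5 was the lowest of all mice for both, whereas sham mouse 6 was lowest among sham controls for H2-Oa and highest of all mice for H2-Ob. Signs of these small estimates turned with the settings: H2-Oa was 0.01 without stroke mouse 5, and H2-Ob was 0.04 when every mouse was scaled to the same total.

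Of the mice left out 1 at a time, sham mice 2 and 6, at the ends of the range, moved the estimates of the classical chains most, in opposite directions. Without sham mouse 6, the log2 fold change was −0.55 for Cd74, −0.50 for H2-Aa, −0.41 for H2-Ab1 and −0.52 for H2-Eb1. These 4 genes then passed limma's unadjusted threshold, but their adjusted p-values of 0.264, 0.295, 0.284 and 0.261 did not pass. In the same setting 2098 of 12661 genes (16.6%) passed unadjusted. Without sham mouse 2, the estimates moved toward 0, to −0.06 for Cd74, −0.16 for H2-Aa, −0.10 for H2-Ab1 and −0.12 for H2-Eb1. Quantile normalization of all mice gave −0.158 for H2-Aa, −0.061 for H2-Ab1 and −0.092 for H2-Eb1. Without both sham mouse 6 and stroke mouse 5, a setting added after the data were seen, 2 genes passed unadjusted, Cd74 at −0.47 and H2-Eb1 at −0.47, beside 12.8% of all genes tested. Scaling every mouse to the same total moved the median log2 fold change of all genes to 0.12 and that of the 10 genes to −0.06, so that relative to all genes they lay lower by a like amount. After quantile normalization the medians lay closer together, at 0.0022 for all genes and −0.077 for the 10 genes. None of the 10 genes passed at an adjusted p under 0.05 in any setting tried.

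**Figure D3:**
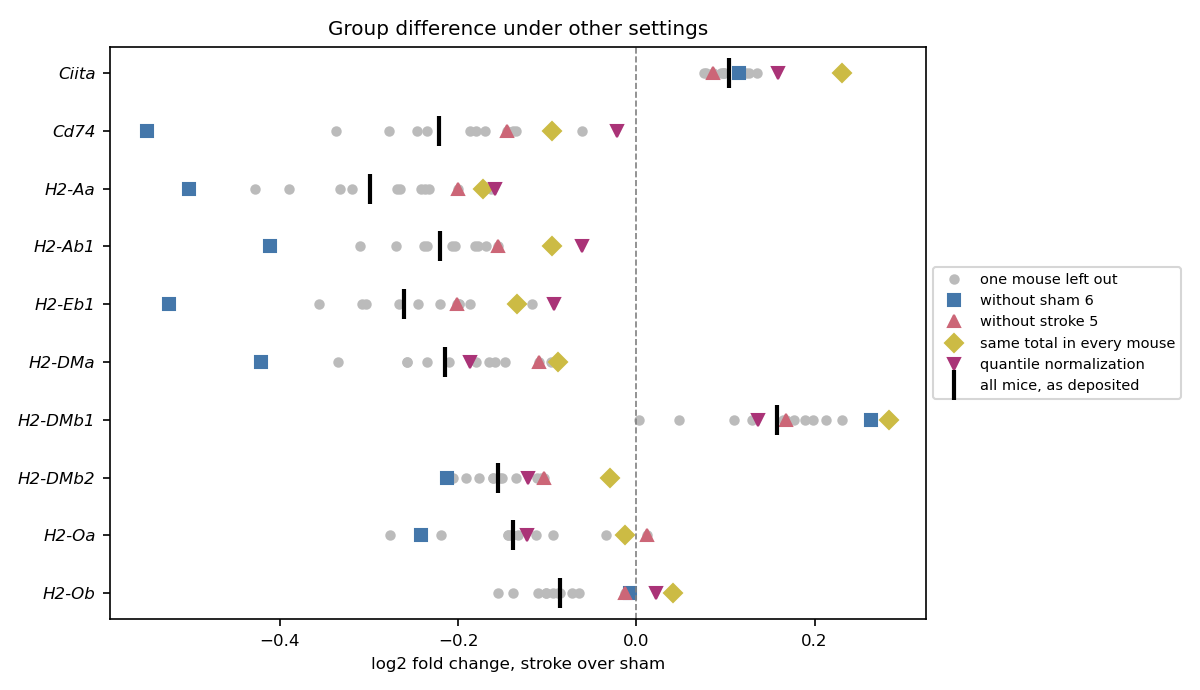
Log2 fold change of stroke mice over sham controls for each of the 10 genes with all mice (black bar), with 1 mouse left out at a time (gray), without sham mouse 6 (blue) or stroke mouse 5 (red), after scaling to the same total (yellow) and after quantile normalization (purple). Without sham mouse 6, Cd74 lay at −0.55 and H2-Eb1 at −0.52, the leftmost points, while Ciita and H2-DMb1 stayed to the right of 0.

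The variation between mice was shared by some of the genes and not by others. Over 12 mice, log2 values of Cd74, H2-Aa, H2-Ab1, H2-Eb1 and H2-DMa had pairwise Pearson correlations of 0.929 to 0.983. H2-Oa followed them at 0.776 to 0.891 and H2-DMb2 at 0.747 to 0.823. H2-DMb1 ran against them, at −0.712 to −0.688, and H2-Ob did so more weakly, at −0.481 to −0.285. These are descriptions over mice that share one scaling per library, and across 8535 genes with a mean of at least 10 the median correlation with the mean of Cd74, H2-Aa, H2-Ab1 and H2-Eb1 was 0.304. Outside the 10 genes, those nearest to that mean were M6pr (0.991), Cstf2t (0.988), Hsd17b10 (0.984), Msn (0.983) and Atxn7l3b (0.983). M6pr, a receptor that carries lysosomal enzymes to endosomes, had its highest value, 62.3, in sham mouse 2 and was at 23.2 in sham mouse 6.

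**Figure D4:**
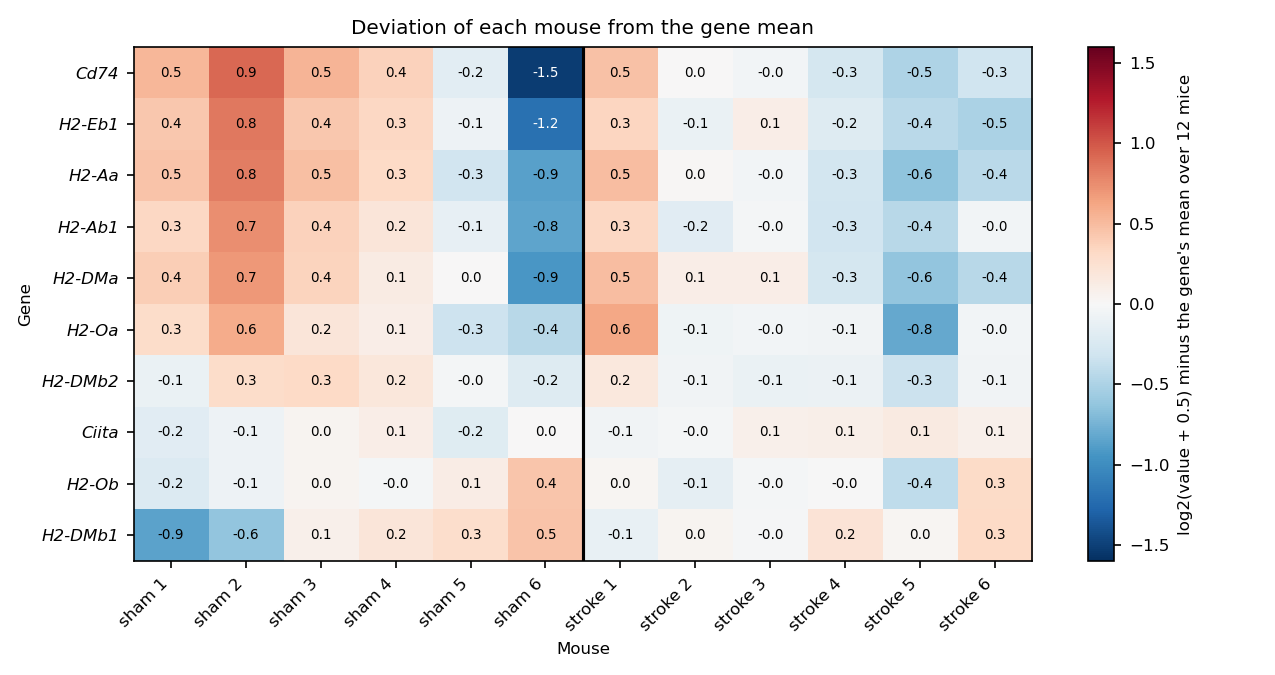
Deviation of log2(value + 0.5) in each mouse from the mean of that gene over 12 mice, for the 10 genes (rows) and 12 mice (columns, sham left of the black line). Red is above and blue below the mean. In sham mouse 6 Cd74 is at −1.5 and H2-DMb1 at 0.5, and in sham mouse 2 Cd74 is at 0.9 and H2-DMb1 at −0.6.

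Because the libraries differ in scale, ratios between genes of 1 library were also compared. The ratio of H2-Aa to H2-Ab1, the chains of I-A, was among the steadiest, from 0.518 to 0.639 in sham controls and from 0.446 to 0.674 in stroke mice. Cd74 to H2-Ab1 ran from 2.57 to 2.62 in sham mice 1 to 4 but was 2.22 in sham mouse 5 and 1.42 in sham mouse 6, and stroke mice lay between 1.87 and 2.61. H2-DMb1 to H2-DMb2 ranged 3.01-fold, from 0.360 in sham mouse 2 to 1.08 in sham mouse 6, with stroke mice between 0.560 and 0.887. The groups overlapped for each of these ratios. H2-Ob to H2-Oa, the chains of H2-O, ranged 2.96-fold, from 4.20 in sham mouse 2 to 12.4 in sham mouse 6, with 4.47 to 9.02 in stroke mice.

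**Figure D5:**
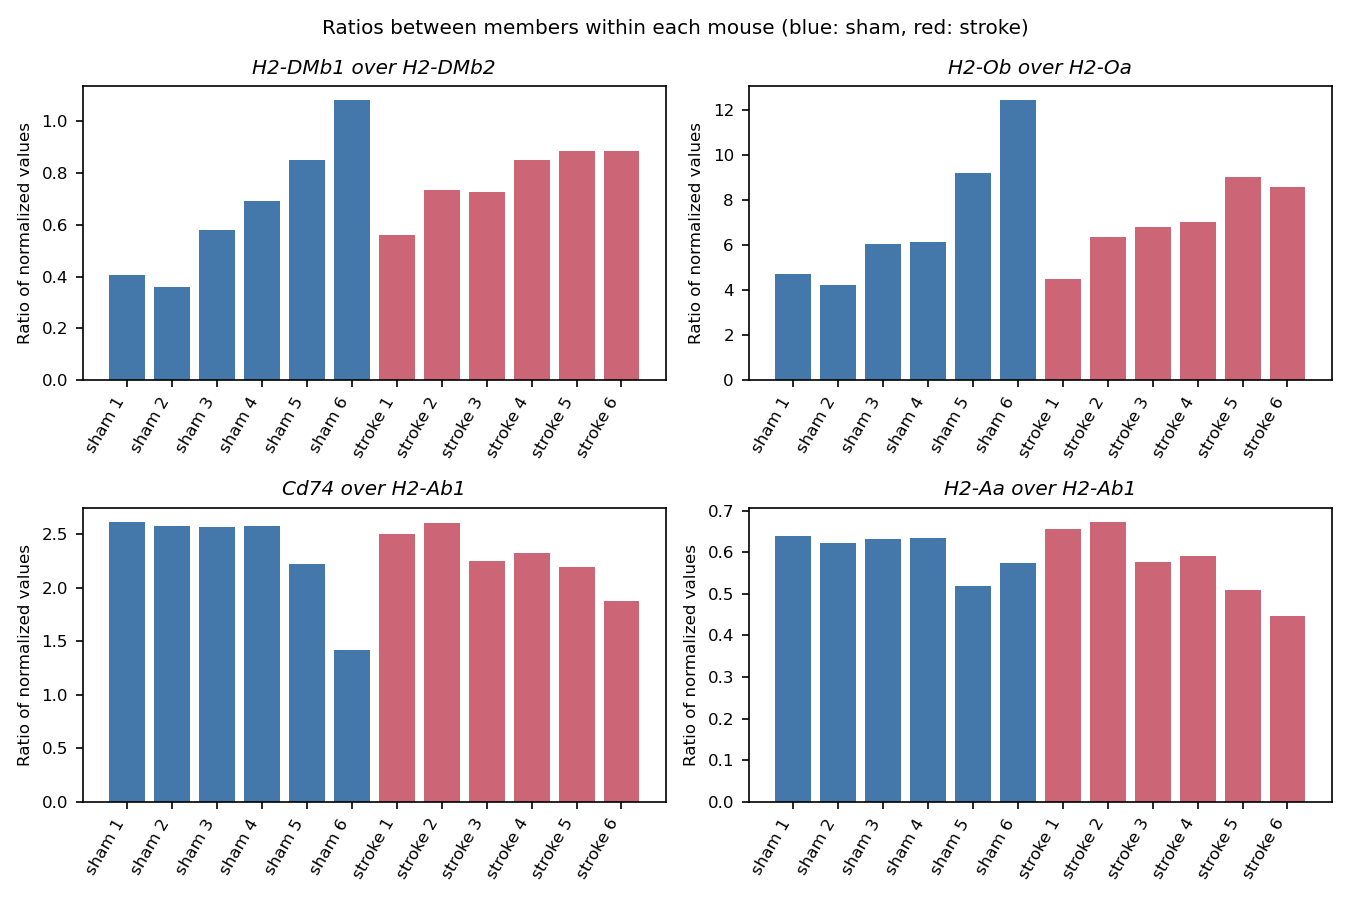
Ratio of normalized values of 2 genes within each mouse (linear axes from 0, blue sham, red stroke). The ratio of H2-Aa to H2-Ab1 stays between 0.446 and 0.674, whereas H2-DMb1 to H2-DMb2 and H2-Ob to H2-Oa are lowest in sham mouse 2 and highest in sham mouse 6, at 1.08 and 12.4.

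Markers of other cells that can carry class II molecules were examined in the same libraries. Summed epithelial markers (6 genes, with Krt8 and Epcam at 1 or above in every mouse) were 763 in sham mouse 2 and 680 in sham mouse 1, against 5.20 in sham mouse 6, and ran from 7.21 to 405 in stroke mice (medians 183 and 71.9). The log2 fold changes of Epcam and Krt8 were −1.59 and −1.65, with exact permutation p of 0.197 and 0.277. Summed macrophage and monocyte markers (8 genes) ran from 37.6 in sham mouse 6 to 297 in sham mouse 1 and from 48.1 to 164 in stroke mice, while the means of Adgre1 were 0.505 and 0.714 and those of Fcgr1 0.160 and 0.165. Most of the 297 came from Lyz2, which was at 247 in sham mouse 1 and 16.4 in sham mouse 6. In these mice Csf1r was at 21.1 and 4.33, Cd68 at 10.8 and 11.2 and Cx3cr1 at 2.15 and 2.18. Summed dendritic cell markers (8 genes) ran from 38.5 in sham mouse 6 to 70.8 in sham mouse 1 and from 37.9 to 68.0 in stroke mice. Of the 6 dendritic markers tested, 3 had a higher and 3 a lower estimate in stroke mice, with a median log2 fold change of −0.01 and with Itgax at −0.28 and Ccr7 at −0.24. Flt3 had a log2 fold change of 0.50 (limma adjusted p = 0.716, exact permutation p = 0.00649), while Xcr1 and Clec9a were below 1 in at least 1 mouse. Siglech, a marker of plasmacytoid dendritic cells, had a log2 fold change of 0.51 (limma adjusted p = 0.791, exact permutation p = 0.0758). The isolation steps of the study were meant to remove these cells. Their part in the class II values was not tested. Summed plasma cell markers (7 genes) ran from 295 in sham mouse 6 to 1487 in sham mouse 1 and from 372 to 1086 in stroke mice. Germinal center markers (6 genes) summed to 129 to 266 in sham controls and 134 to 278 in stroke mice. T cell markers (6 genes) summed to 34.8 to 99.7 and 30.7 to 127. None of these sums was tested against the class II values. Of the 7 B cell markers, 5 had a lower and 2 (Pax5 and Cd22) a higher estimate in stroke mice, with a median log2 fold change of −0.27. The complement receptor Cr2 was 258 ± 31.9 in sham controls and 158 ± 56.9 in stroke mice, and the IgE receptor Fcer2a was 277 ± 42.1 and 187 ± 70.4 (n = 6 each). Their log2 fold changes were −0.83 and −0.72, with exact permutation p of 0.00433 and 0.0108 and limma adjusted p of 0.748 and 0.791. Stroke mouse 5, at 47.1 for Cr2 and 48.6 for Fcer2a, lay far below the other stroke mice, and without it the log2 fold changes were −0.51 and −0.36.

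Whether Ciita followed the genes it controls was tested across mice for 4 relations. Over 12 mice, Pearson's r of Ciita was −0.302 with Cd74 (permutation p = 0.347), −0.359 with H2-Aa (p = 0.250), −0.335 with H2-Ab1 (p = 0.287) and −0.322 with H2-Eb1 (p = 0.309). Spearman's rho was −0.434, −0.378, −0.364 and −0.441, with permutation p of 0.162, 0.229, 0.247 and 0.154. Adjusted over the 4 relations, p was 0.347 for each r and 0.247 for each rho, so that no relation passed. Without the 2 mice farthest from the Ciita median (sham mice 1 and 5), r was −0.345, −0.539, −0.431 and −0.350.

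Within groups the values differed, but the relations had been planned over all 12 mice only, and the split by group was unplanned. In the 6 sham controls, r lay between −0.103 and 0.0123. In the 6 stroke mice, r was −0.909 with Cd74 and −0.905 with H2-Aa, by exact permutation p of 0.00556 and 0.00694, both 0.0278 after adjustment over the 8 relations within groups. It was −0.742 with H2-Ab1 and −0.712 with H2-Eb1, by exact permutation p of 0.0903 and 0.117, both 0.233 after adjustment. The adjustment left out the planned relations over 12 mice. Spearman's rho for Cd74 and H2-Aa was −0.829, with an exact permutation p of 0.0583. Without the 2 stroke mice farthest from the Ciita median (stroke mice 1 and 2), r was −0.762 with Cd74 and −0.744 with H2-Aa. With every mouse scaled to the same total it was −0.697 with Cd74 and −0.725 with H2-Aa, and by exact permutation p of 0.126 and 0.107 neither passed. With median-of-ratios factors r was −0.927 with Cd74, −0.907 with H2-Aa and −0.902 with H2-Ab1. The unadjusted exact permutation p there was 0.0111, 0.0167 and 0.0236. For H2-Eb1 in that setting r was −0.692 (exact permutation p = 0.114). After quantile normalization r was −0.876 with Cd74 (exact permutation p = 0.025) but −0.409 with H2-Aa (exact permutation p = 0.419). In that setting r turned to 0.464 with H2-Ab1 and 0.338 with H2-Eb1. The difference in r between the groups was not tested. H2-Ab1 per Ciita was 6.11 ± 2.10 in sham controls and 4.70 ± 1.14 in stroke mice (n = 6 each), with 2.87 in sham mouse 6 and 9.11 in sham mouse 2. The genes most like Ciita over 12 mice were Atf7 (0.872), Maml3 (0.863), Anapc16 (0.855), Gm19196 (0.845) and Phf12 (0.831), where the median over 8535 genes was −0.117.

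A further 26 genes of the class II pathway were tested. After limma with adjustment over all genes 0 of them passed, and 2 passed limma's unadjusted threshold of 0.05, beside 6.12% of all genes tested in either direction. Both were lower in stroke mice, as were 1.69% of all genes tested. Estimates were lower for 20 and higher for 6, with a median log2 fold change of −0.17, which ran from −0.25 without sham mouse 6 to −0.04 with the same total in every mouse. Of 12 regulators, Creb1, a factor of the X box region, was 84.2 ± 5.80 in sham controls and 71.7 ± 5.55 in stroke mice (n = 6 each). Creb1 thus had a log2 fold change of −0.23 (SE 0.098, limma adjusted p = 0.791) and an exact permutation p of 0.00433. Creb1 did not pass limma's unadjusted threshold with either total scaling or without any one of sham mice 1 to 4 or stroke mice 5 and 6. Of the RFX subunits, which bind the X box, Rfx5 and Rfxap had log2 fold changes of −0.07 and 0.25. Of the NF-Y subunits, which bind the Y box, Nfya and Nfyb had −0.46 and 0.03, and Nfya was at −0.19 without stroke mouse 5. None of the 6 RFX and NF-Y genes passed the unadjusted threshold, and the signs of Rfx5 and Nfyb turned with the scaling, the weights or the mice included.

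Cd83, which counters the ubiquitin-driven removal of class II molecules from the cell surface, ran from 96.6 to 218 in sham controls (median 187) and from 35.3 in stroke mouse 5 to 151 in stroke mice (median 121). Cd83 had a log2 fold change of −0.69 (SE 0.32, limma adjusted p = 0.791, exact permutation p = 0.0498). Without stroke mouse 5 it was −0.39. Cd83 did not pass limma's unadjusted threshold there, with either total scaling, with a pseudocount of 0.1, with looser filters or without any one of sham mice 1 to 5 or stroke mice 3, 4 and 6. Marchf1, the ubiquitin ligase on the other side of that balance, had 74.5 ± 9.57 and 90.8 ± 17.2, a log2 fold change of 0.27 that did not pass (limma adjusted p = 0.791, exact permutation p = 0.0931). Of 9 endosomal proteases and related genes, 0 passed unadjusted and 8 had a lower estimate. Ctss, which trims the invariant chain in B cells, was 309 ± 130 in sham controls and 221 ± 73.1 in stroke mice, a log2 fold change of −0.40 (limma adjusted p = 0.839, exact permutation p = 0.348), or −0.69 without sham mouse 6.

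Both remaining chain genes lay below the classical chains. H2-Ea, annotated as a polymorphic pseudogene (chr17:34341959-34344645), was between 5.20 and 22.3 in sham controls and between 9.70 and 15.5 in stroke mice, with its highest value in sham mouse 6, where H2-Eb1 was lowest. H2-Eb1 thus exceeded H2-Ea by 22.3-fold in that mouse and by 350-fold in sham mouse 2. H2-Eb2, a further β chain gene, was 71.5 ± 16.5 in sham controls and 51.4 ± 16.9 in stroke mice (n = 6 each), and its log2 fold change was −0.52 (SE 0.25, limma adjusted p = 0.791, exact permutation p = 0.0714), or −0.31 without stroke mouse 5.

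The MHC class I genes, which serve presentation to CD8+ T cells, were examined beside them. Of 16 genes, 0 passed after adjustment and 0 at an unadjusted p under 0.05 by limma. Their median log2 fold change was −0.20, with 12 lower and 4 higher estimates, and it ran from −0.35 without sham mouse 6 to −0.07 with the same total in every mouse. B2m, the light chain of class I molecules, was 626 ± 331 in sham controls and 407 ± 201 in stroke mice, and its log2 fold change was −0.49 (limma adjusted p = 0.853, exact permutation p = 0.372), or −0.89 without sham mouse 6, where 8 of the 16 genes and 16.6% of all genes passed the unadjusted threshold. H2-K1, a class I heavy chain, was steadier, with 755 ± 87.2 and 732 ± 38.9 and a log2 fold change of −0.04 whose sign turned with the scaling. The difference between the class II and class I lists was not tested.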

How the data were processed

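PP B cells were sequenced from 12 mice, 6 per group, 1 library each. The labels give the groups and replicate numbers. According to the submitters' processing notes, the authors used FastQC, Trimmomatic 0.39, kallisto 0.48.0, R 4.1.2 and sleuth 0.30.0 with build GRCm38. The deposited values are a normalized signal per gene that is labelled as TPM. Because the columns did not sum to 1 fixed total, they were treated as a signal, although the design had assumed TPM. A shared scaling factor of a library moves all of its genes together.

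From the deposited values log2(value + 0.5) was computed here, genes below 1 in any mouse were left out, and the groups were compared by limma 3.58.1 (R 4.3.3), unblocked, with p-values adjusted over all genes tested by the Benjamini-Hochberg method. Fold changes on this scale understate changes of low genes. Single genes were also tested by exact permutation of the group labels (two-sided, 924 assignments), whose smallest p is 0.00216. Correlations used 100000 permutations, or all permutations within groups, two-sided (Python 3.11.15, scipy 1.17.1, matplotlib 3.10.9). The script was tested on simulated data. Gene coordinates are from GENCODE on GRCm38 and promoters from RefSeq on GRCm38.p6.

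All 10 genes were named. List genes were named at an unadjusted p under 0.05, where groups did not overlap or where they define a subgroup, and the 5 genes outside the 10 with the highest correlation were named for each pattern. The 10 genes were picked by function, but they, the lists and the tests were chosen with earlier results of these data known. Alternatives changed the pseudocount, the filter, the scaling, sample weights, a replicate block and the mice included. P-values measure the spread between mice. A gene of the B cell marker list as first drawn up was left out of all values and is not reported here.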

Additional observations from a re-analysis of the deposited data

Results flagged for a closer look

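Stroke mouse 5 lay apart from the other 5 stroke mice for 5 of the 26 genes examined, by Dixon's test of the gap to the nearest mouse on the log2 scale. Its value was 35.3 for Cd83, 52.1 for Rfx5, 9.76 for Nfya, 47.1 for Cr2 and 48.6 for Fcer2a, each the lowest of the stroke mice. Sham mouse 1 lay apart from the other sham controls for Fcer2a, at 199, the lowest of that group. The test was run on 52 groups of 6 mice, and chance marks about 1 in 20, or 2.6 of 52. None of the 10 class II presentation genes was marked in either group.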

How the results depend on the processing

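The count of adjusted calls among the 10 genes was 0 in every setting tried. At an unadjusted p under 0.05 (limma, 0 with all mice), array quality weights called 3 (H2-Ab1, H2-Eb1 and H2-DMb2, beside 12.5% of all genes), leaving out 1 mouse at a time called 0 to 4, and leaving out sham mouse 6 and stroke mouse 5 together, chosen after the data were seen, called 2. Their median log2 fold change was −0.059 with the same total in every mouse, −0.063 with the same total over genes other than immunoglobulins, −0.077 with quantile normalization and −0.33 to −0.10 with 1 mouse left out. Of the other pathway genes (2 called), 1 was called with a pseudocount of 0.1, with a value of at least 1 in 6 or more mice and with no filter, 0 with either total scaling, 6 with array weights, 7 without the pair of mice and 0 to 6 with 1 mouse left out. Of the class I genes (0 called), 1 was called with median-of-ratios factors and with quantile normalization, 6 with array weights, 9 without the pair of mice and 0 to 8 with 1 mouse left out. Over all genes, 1 was called after adjustment with a value of at least 1 in 6 or more mice and 0 to 1 with 1 mouse left out. Unadjusted calls over all genes (770) were 1768 with no filter, 410 with either total scaling, 1569 with array weights, 1637 without the pair of mice and 567 to 2098 with 1 mouse left out, the highest without sham mouse 6.

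With 1 mouse left out H2-Oa ran from −0.28 to 0.012, the latter without stroke mouse 5. H2-Ob turned to 0.041 with the same total in every mouse, 0.036 with the same total over genes other than immunoglobulins, 0.022 with quantile normalization and 0.066 without the pair of mice. Rfx5 turned to 0.054 and 0.050 with the total scalings and 0.033 without the pair of mice, and Nfyb to −0.13 with array weights, −0.11 without the pair of mice and −0.044 to 0.089 with 1 mouse left out. H2-K1 turned to 0.088 and 0.084 with the total scalings, 0.11 with quantile normalization and −0.089 to 0.011 with 1 mouse left out. The r of Ciita with Cd74 was −0.669 (permutation p = 0.0165) with quantile normalization and −0.909 within stroke mice. The r of Ciita with H2-Aa was 0.0123 within sham controls and −0.905 within stroke mice. The r of Ciita with H2-Ab1 was −0.589 (permutation p = 0.0445) with median-of-ratios factors and 0.235 (p = 0.460) with quantile normalization. The cause of these changes was not tested.

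Same-numbered mice were not treated as pairs, since the labels name no shared origin and the correlation of their deviations from the group means was above 0.1 in 4 of 6 pairs only (0.0134 to 0.494, mean 0.218, against −0.0414 for other pairs), and 2 of 6 sham controls and 2 of 6 stroke mice were closest to their own number. A replicate block called 1174 genes unadjusted over the whole table, 0 of the 10 genes and 3 of the other pathway genes, with 0 genes adjusted. Depth is unknown, so the limit it sets on low values cannot be given.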
